A study of Danio rerio
Oryzias latipes and Oryzias latipes and Danio rerio with 7 samples.

Results

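The Hox genes are the homeobox genes of the 4 ancestral vertebrate clusters a, b, c and d, numbered by paralogue group from 1 at the 3' end of a cluster to 13 at its 5' end. Members were taken by symbol: every gene record whose name begins with hox, a cluster letter and a group number, with case ignored. The rule gave 50 records of 32264 gene IDs on the zebrafish genome and 32 of 20459 on the medaka genome. The zebrafish records carry 48 symbols on 7 chromosomes and cover 13 groups. The medaka records lie on 6 chromosomes and cover 12 groups, with no record of group 7 found by the rule.

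Whole embryos of 3 kinds were sequenced as poly(A) RNA. The chimeras, called zebraka, were medaka (Cab) blastulae that had received zebrafish (AB) blastomeres of the same age (n = 3 libraries). The other libraries came from AB zebrafish embryos (n = 2) and Cab medaka embryos (n = 2). All were kept at 28 °C, the chimeras and medaka in ERM medium and the zebrafish in E3 medium, and the stage is given only as embryo. Medium and host therefore cannot be told apart when chimeras are set against zebrafish embryos. Every library has a table of FPKM (fragments counted per kilobase of a transcript and scaled to the library's mapped fragments) for each genome. The zebrafish genome reads the transplanted donor cells of a chimera, and the medaka genome reads its host cells. The labels do not say whether a group's libraries are separate clutches. The p-values then cover only the scatter among these libraries, and part of it may be technical.

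Hox proteins are transcription factors that give cells their position along the head-to-tail axis. Genes of low group number are switched on first and reach furthest forward, into the hindbrain, and genes of high group number mark the posterior trunk and tail. Forebrain, midbrain and eye form ahead of the Hox domain. Retinoic acid and Cdx proteins switch the clusters on, and Pbx and Meis proteins bind DNA together with Hox proteins. Teleost fish duplicated their genome after they split from land vertebrates, which is why many members come as a copies and b copies. On danRer10 the zebrafish members lie in hoxa runs on chromosomes 16 and 19, hoxb runs on chromosomes 3 and 12, hoxc runs on chromosomes 11 and 23, and a hoxd run on chromosome 9.

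The deposited confidence limits imply 764000 to 941708 fragments per chimera on the zebrafish genome, 21866655 and 28574227 in the zebrafish libraries, and 102064 and 77794 in the medaka libraries. On the medaka genome they imply 27167734 to 30983952 fragments per chimera, 21491640 and 18330408 in the medaka libraries, and 63818 and 81765 in the zebrafish libraries. The zebrafish libraries were 31.3 to 57.1 times deeper per FPKM than the chimeras on the zebrafish genome. Donor levels near 0 are therefore read with the number of fragments that each chimera could have shown.

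In the donor cells Hox transcripts were close to the limit of detection. Of the 50 zebrafish records, 41 were listed at 0 FPKM in all 3 chimeras. The other 9 were hoxa2b, hoxa3a, hoxb2a, hoxb8b, hoxc1a, hoxc13a, 1 of the 2 hoxc10a records, and the group 4 genes hoxc4a and hoxd4a. In zebrafish embryos every record was above 0, with means of 0.435 to 56.2 FPKM and a median of 8.86 FPKM. In bulk RNA, fewer cells of a type and less RNA per cell cannot be told apart.

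**Figure D1:**
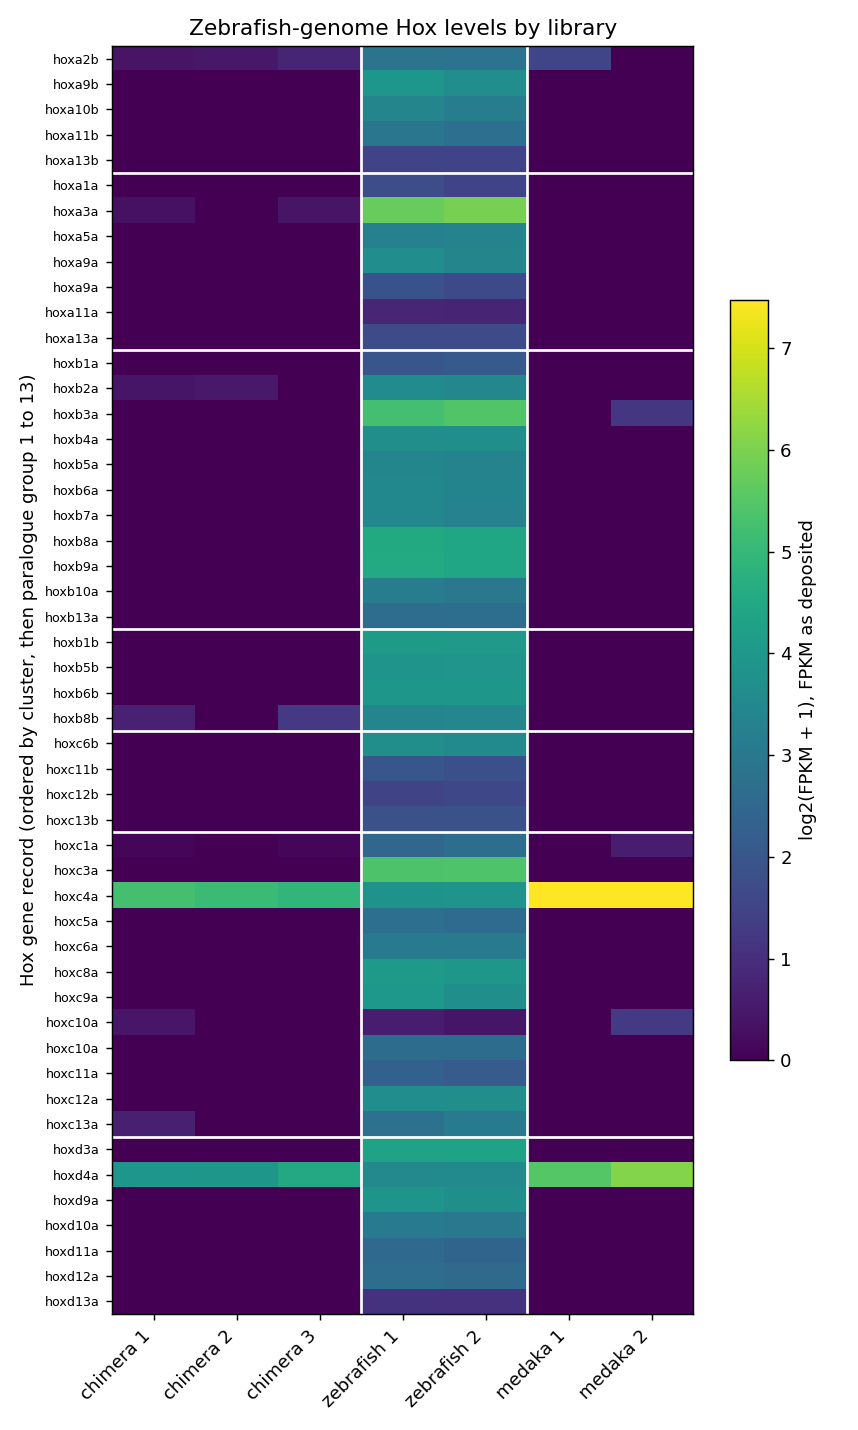
Level of each zebrafish Hox record as log2(FPKM + 1) in the 3 chimera, 2 zebrafish and 2 medaka libraries, all read on the zebrafish genome, with white lines between chromosomes. The chimera columns are dark except for hoxc4a and hoxd4a, which are also bright in the medaka columns.

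A gene was tested when its mean was at least 1 FPKM in either group and under 1 FPKM in the medaka libraries, and 46 of the 50 records passed. hoxc4a and hoxd4a were left out for cross-mapping, and hoxa11a and the lower of the hoxc10a records for low levels. All 46 tested records were lower in chimeras than in zebrafish embryos (limma, Benjamini-Hochberg adjusted p under 0.05 over all tested genes), and 0 were higher, with an unadjusted count of 0 as well. Over all 16604 genes tested, 32.9% were lower and 10.2% higher. Each of the 46 passed the filter through the zebrafish libraries alone, the highest rescaled chimera mean being 0.65 FPKM (hoxb8b). For records so low in chimeras the filter itself favours a lower direction. With no expression filter 47 of 48 Hox records were lower and 0 higher, beside 9518 lower and 1687 higher of 25912 genes. After rescaling of the libraries to a common median, the groups did not overlap for any of the 46 records, while 43.9% of all tested genes lay wholly lower in chimeras without overlap. Fitted differences on the log2(FPKM + 1) scale ran from -5.64 for hoxa3a to -1.11 for hoxd13a with a median of -3.21, against -0.25 over all tested genes. For genes listed at 0 these sizes depend on the pseudocount and are not folds: the Hox median was -6.30 with a pseudocount of 0.1 and -1.46 with 5.

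Group 1 genes pattern the hindbrain, and hoxb1b is among the first Hox genes to respond to retinoic acid in zebrafish. hoxb1b was listed at 0 FPKM in all 3 chimeras, against 15.8 and 15.3 FPKM in zebrafish embryos. At the zebrafish level 116 fragments would have been seen over the chimeras. hoxc1a had 0.0657, 0 and 0.0741 FPKM in chimeras and 4.58 and 5.54 FPKM in zebrafish embryos. The chimera values of hoxc1a amount to 2.06 fragments where 223 were expected, the deepest expectation of any member. The medaka libraries also held 1.00 fragment of hoxc1a on the zebrafish genome, which becomes 2.16 at the host depth of the chimeras.

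Group 2 held more residual fragments than any other group, 6.08 in all once hoxc4a and hoxd4a are set aside, though the groups were not tested against each other. hoxa2b, which sets the identity of the second pharyngeal arch, had 0.316, 0.406 and 0.712 FPKM in chimeras and 6.36 and 6.14 FPKM in zebrafish embryos. It was the member above 0 in all 3 chimeras once the cross-mapped group 4 genes are set aside, and its groups did not overlap (log2 difference -2.36, SE 0.18, limma adjusted p = 0.00046). Its locus is chr16:21120854-21123364 on danRer10. 1 of the medaka libraries also held 1.00 fragment of hoxa2b on the zebrafish genome. hoxb2a, a gene of the hindbrain segments, had 0.332, 0.426 and 0 FPKM in chimeras and 11.2 and 10.1 FPKM in zebrafish embryos (log2 difference -3.28, SE 0.22, limma adjusted p = 0.00027).

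Group 3 genes are active in the posterior hindbrain, and the 3 highest Hox members of zebrafish embryos, hoxa3a, hoxc3a and hoxb3a, belong to this group. hoxa3a had 0.27, 0 and 0.305 FPKM in chimeras and 52.2 and 60.2 FPKM in zebrafish embryos (log2 difference -5.64, SE 0.18, limma adjusted p = 7.3e-05). Its chimera values rest on 0.424 fragments, under 1 whole fragment, where 124 were expected. hoxb3a, hoxc3a and hoxd3a were listed at 0 in all chimeras, with zebrafish means of 39.7, 41.4 and 19.0 FPKM. The loci of these 4 records span other Hox genes in the deposited annotation, that of hoxc3a overlapping 6 other members, so their levels may hold reads of neighbours.

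In the middle of the clusters the signal was at or near 0. hoxb5b, listed at 0 in chimeras, had 13.8 and 13.9 FPKM in zebrafish embryos. hoxb6b, also listed at 0 in chimeras, had 14.4 and 14.4 FPKM in zebrafish embryos. The single group 7 gene hoxb7a was listed at 0 in chimeras and stood at 10.2 and 8.86 FPKM in zebrafish embryos. None of the groups 4 to 7 held a donor fragment once hoxc4a and hoxd4a were set aside. hoxb8a, a trunk gene at chr3:23557361-23559933, was listed at 0 in all chimeras where 185 fragments were expected, against 22.2 and 20.4 FPKM in zebrafish embryos. Its copy hoxb8b had 0.612, 0 and 1.38 FPKM in chimeras and 9.64 and 9.91 FPKM in zebrafish embryos. The hoxb8b difference of -2.83 (SE 0.39, limma adjusted p = 0.0040) did not pass without zebrafish replicate 1 (adjusted p = 0.088) or zebrafish replicate 2 (adjusted p = 0.080). Either fit leaves 1 zebrafish library, which is assumed to vary like the chimeras, and the lower calls over all genes were then 3407 and 3431 in place of 5466.

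Posterior members were low in the same way. hoxb9a was listed at 0 in chimeras and had 22.7 and 20.3 FPKM in zebrafish embryos, and all 6 group 9 records were at 0 in chimeras. hoxa10b was at 0 in chimeras, against 9.55 and 8.02 FPKM in zebrafish embryos. hoxa11b was at 0 in chimeras, against 6.62 and 5.61 FPKM in zebrafish embryos. hoxc12a was at 0 in chimeras, against 11.8 and 11.9 FPKM in zebrafish embryos. hoxc13a, of the group that marks the end of the axis, had 0.565, 0 and 0 FPKM in chimeras and 6.12 and 7.31 FPKM in zebrafish embryos. The single chimera value of hoxc13a is 1.01 fragments, and its call (log2 difference -2.77, SE 0.25, limma adjusted p = 0.00090) was lost without zebrafish replicate 1 (adjusted p = 0.051) or 2 (adjusted p = 0.058). The lower hoxc10a record had 0.378, 0 and 0 FPKM in chimeras and 0.516 and 0.355 FPKM in zebrafish embryos, so it was not tested. It overlaps the other hoxc10a record, which was listed at 0 in chimeras, and reads of the pair cannot be assigned with certainty. 1 medaka library also read 1.41 FPKM of the lower record on the zebrafish genome, from 0.489 fragments.

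Depth was compared with these zeros directly. Of the 45 tested Hox records with at least 3 expected fragments over the chimeras, 39 (86.7%) were listed at 0 in all chimeras, against 11.1% of the 15737 genes that met the same condition. The median expectation was 41.6 fragments for tested Hox records, with a range of 2.28 to 223, and 48.2 for all genes with at least 3. Summed over all 50 members, the chimeras held 280 fragments where 2786 were expected, or 10.1% (8.92% to 11.3%). Most of these belong to hoxc4a and hoxd4a, which medaka embryos also show. Over the other 48 members the chimeras held 13.9 fragments (exact Poisson 95% interval 7.59 to 23.4, counting error only) where 2647 were expected. That is 0.525% of the zebrafish level (0.287% to 0.883%). Chimera 1 held 7.01 of 985 expected fragments, chimera 2 held 2.02 of 784 and chimera 3 held 4.88 of 878. The medaka libraries held 2.50 fragments of the same 48 members. Scaled to the host depth of the chimeras, 2.50 becomes 5.40 fragments (0.900 to 17.3), and the interval of 7.59 to 23.4 seen in chimeras overlaps it. Those 13.9 fragments rest on the chimera FPKM and the fragments per FPKM of the zebrafish libraries; read from the chimeras' own confidence limits, as the medaka fragments were, they came to 12.1. The 44 members at 0 FPKM in both medaka libraries held 5.87 of the 13.9 fragments. Overlap of the intervals is not a test, and 2.50 medaka fragments leave the cross-mapping rate wide. At this depth donor Hox signal and cross-mapping cannot be told apart over these 48 members together.

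By paralogue group, group 2 held 6.08 of 149 expected fragments, or 4.08% (1.51% to 8.84%). Group 9 held 0 of 388, which allows up to 0.951%. Group 1 held 2.06 of 372, group 3 held 0.424 of 409, group 8 held 2.41 of 299, group 10 held 1.94 of 208 and group 13 held 1.01 of 121. Groups 4, 5, 6, 7, 11 and 12 held 0 where 41.9, 228, 191, 30.3, 136 and 73.6 fragments were expected. These shares were not tested against each other. By cluster, without the cross-mapped members, the hoxa runs held 4.05 of 282 fragments on chromosome 16 and 0.424 of 240 on chromosome 19. The hoxb runs held 2.03 of 810 on chromosome 3 and 2.41 of 334 on chromosome 12. The hoxc runs held 5.01 of 642 on chromosome 23 and 0 of 82.1 on chromosome 11. The hoxd run on chromosome 9 held 0 of 259.

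**Figure D2:**
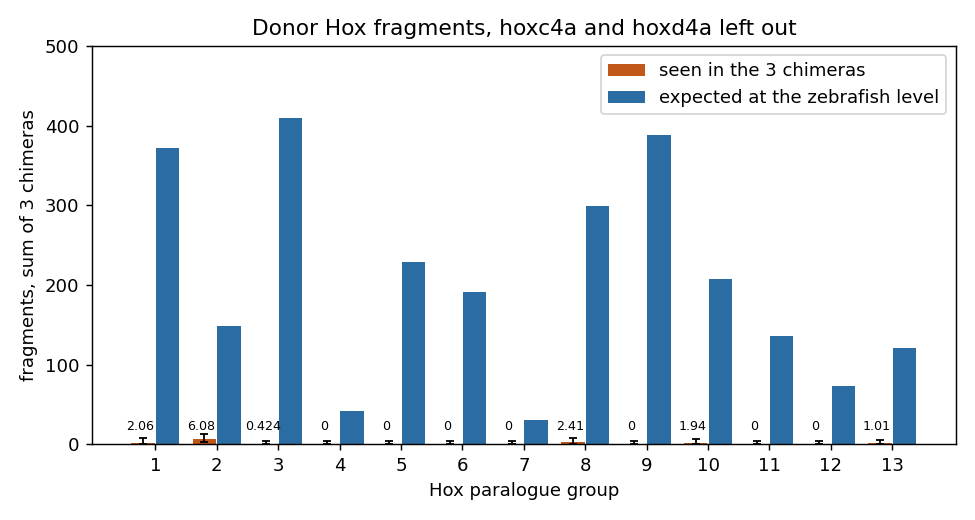
Fragments of each Hox paralogue group on the zebrafish genome, summed over the 3 chimeras (orange, with exact Poisson 95% intervals and the value printed), beside the number expected at the level of zebrafish embryos (blue). hoxc4a and hoxd4a are left out. No orange bar passes 6.08 fragments, while the blue bars run from 30.3 to 409.

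hoxc4a and hoxd4a, genes of the hindbrain and spinal cord border, went against the other members. hoxc4a read 37.3, 33.5 and 29.3 FPKM in chimeras, 13.2 and 13.6 FPKM in zebrafish embryos, and 177 and 177 FPKM in medaka embryos, all on the zebrafish genome. hoxd4a read 14.2, 14.6 and 21.6 FPKM in chimeras, 10.4 and 10.7 FPKM in zebrafish embryos, and 44.5 and 67.5 FPKM in medaka embryos. As FPKM, both were higher in medaka, which holds no zebrafish cell, than in zebrafish. FPKM is scaled to the fragments on the zebrafish genome, only 102064 and 77794 in the medaka libraries. The medaka values rest on 50.3 and 41.3 fragments of hoxc4a and 27.0 and 33.1 of hoxd4a. They do not measure more RNA than in zebrafish embryos. Per 1000000 medaka-genome fragments, hoxc4a gave 2.05, 1.69 and 1.65 fragments in chimeras and 2.34 and 2.26 in medaka embryos. For hoxd4a these numbers were 1.65, 1.55 and 2.52 in chimeras and 1.26 and 1.81 in medaka embryos.

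By their own confidence limits, as for the medaka libraries, the chimeras held 155 hoxc4a fragments (132 to 182) where host cross-mapping at the medaka rate would give 198. They held 163 hoxd4a fragments (139 to 190) where host cross-mapping would give 132, with 108 and 155 at the rates of the single medaka libraries. From the FPKM and the fragments per FPKM of the zebrafish libraries, the scale used for the sums above, the same chimera values amount to 161 fragments of hoxc4a and 105 of hoxd4a. A full donor level would add 68.3 and 70.2 fragments. The donor part of these genes is not detectable for hoxc4a and unresolved for hoxd4a, whose host rate varied between libraries and whose chimera count, 163 or 105, depends on the estimate. Left in the test, hoxc4a would have counted as a higher gene (log2 difference 1.16, limma adjusted p = 0.0020). In the other direction, the zebrafish libraries held 3.00 and 3.00 fragments of medaka hoxc4 and 1.99 and 1.00 of medaka hoxd4a, and the other 30 medaka members were at 0. Of the 50 zebrafish members, 44 were at 0 in both medaka libraries.

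**Figure D3:**
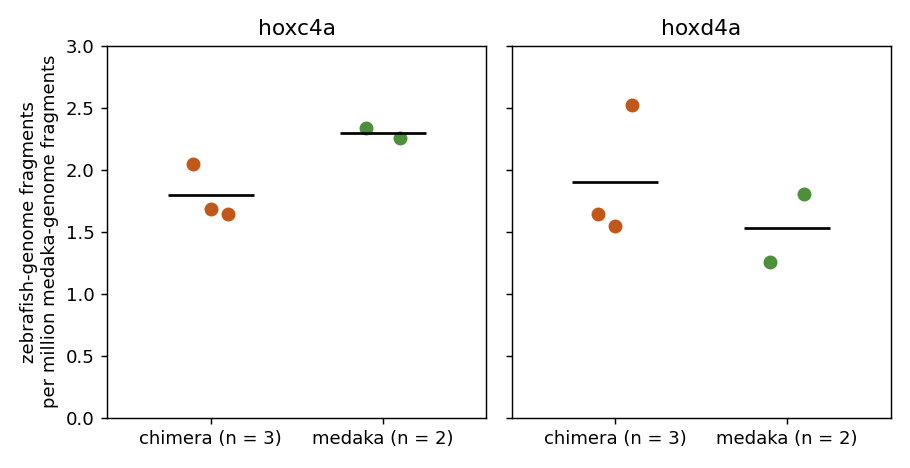
Zebrafish-genome fragments of hoxc4a and hoxd4a per 1000000 medaka-genome fragments, by library (points) with the group mean (line). The chimeras, at 1.55 to 2.52, lie near the medaka libraries, at 1.26 to 2.34, although medaka embryos carry no zebrafish cells.

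In the medaka host, Hox levels stayed close to those of medaka embryos. FPKM summed over the 32 members was 309.8, 312.7 and 294.4 in chimeras and 346 and 338 in medaka embryos, so the chimera mean was 89.3% of the medaka mean. The chimeras lay below both medaka libraries. Of the 26 members tested, 3 were lower in chimeras and 0 higher (limma, Benjamini-Hochberg), against 3.18% lower and 2.68% higher of 13721 tested genes. At an unadjusted p under 0.05, 11 were lower and 0 higher, but the unadjusted share over all host genes was not counted. With voom weights 4 were lower and 0 higher, beside 582 lower and 554 higher of 13721 genes. The difference was negative for 22 of the 26, with a median of -0.17, against -0.0017 over all tested genes. After rescaling, the chimeras lay wholly below medaka embryos for 16 members and wholly above for 1, hoxb2a, against 22.7% and 21.8% of all tested genes.

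The 3 called members were hoxb1b, hoxb9a and hoxc8. hoxb1b, the highest medaka Hox gene, had 30.2, 33.2 and 29.6 FPKM in chimeras and 37.4 and 38.2 FPKM in medaka embryos (log2 difference -0.32, SE 0.05, adjusted p = 0.019 by limma). hoxb9a had 12.5, 11.4 and 9.86 FPKM in chimeras and 18.2 and 15.4 FPKM in medaka embryos (log2 difference -0.58, SE 0.11, adjusted p = 0.034 by limma). hoxc8 had 25.7, 23.3 and 23.5 FPKM in chimeras and 30.8 and 30.2 FPKM in medaka embryos (log2 difference -0.37, SE 0.07, adjusted p = 0.040 by limma). None of the 3 overlapped between groups. None of the 26 members was called without medaka replicate 1, medaka replicate 2 or chimera replicate 3, and 5 were called without chimera replicate 1. Without a medaka replicate the medaka arm is 1 library, assumed to vary like the chimeras, and over all genes the lower calls went down as well, to 84 and 91 in place of 437; without chimera replicate 3 they were 90.

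The highest genes of the other groups gave smaller differences and did not pass the test. HOXA2, the highest group 2 gene, had 20.5, 21.9 and 20.6 FPKM in chimeras and 20.1 and 20.5 FPKM in medaka embryos. hoxb3a of group 3 had 22.5, 23.7 and 22.5 FPKM in chimeras and 21.8 and 22.6 FPKM in medaka embryos. These groups overlapped, as did those of hoxc5a of group 5, with 10.9, 10.7 and 9.57 FPKM in chimeras and 10.1 and 9.92 FPKM in medaka embryos. hoxb6a of group 6 had 6.73, 7.13 and 6.42 FPKM in chimeras and 7.56 and 7.56 FPKM in medaka embryos (adjusted p = 0.096 by limma). hoxa9 of group 9 had 25.1, 27.1 and 23.8 FPKM in chimeras and 29.8 and 26.5 FPKM in medaka embryos, with an adjusted p of 0.12 by limma. Its ranges overlap as deposited and not after rescaling. HOXA10 of group 10 had 9.06, 9.73 and 8.74 FPKM in chimeras and 10.3 and 10.4 FPKM in medaka embryos (adjusted p = 0.072 by limma). hoxa11b of group 11 had 8.33, 9.50 and 7.55 FPKM in chimeras and 10.1 and 8.55 FPKM in medaka embryos, and hoxd12a of group 12 had 4.84, 4.97 and 4.28 FPKM in chimeras and 5.60 and 4.73 FPKM in medaka embryos. Both overlapped. hoxd4a of group 4, left out of the test for cross-mapping, had 29.4, 29.4 and 30.8 FPKM in chimeras and 29.5 and 31.3 FPKM in medaka embryos.

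All 9 tested members of groups 8 to 10 were negative with a median of -0.37. In all 9 the rescaled chimera values lay wholly below those of medaka embryos, though 2 were called. Over all tested host genes 22.7% lay wholly lower and 3.18% were called lower. The plan did not set the bounds of 8 to 10. hoxd9 and hoxc10a are among the 9, and their low values come mostly from chimeras 2 and 3. For groups 1 to 4 the median over 8 tested members was -0.05, and for the tested members of groups 11 and 12 it was -0.13. These medians were not tested against each other. Lower values were not particular to groups 8 to 10. The 2 tested group 1 members, hoxb1b at -0.32 and hoxb1a at -0.24, also lay wholly below medaka embryos. The summed FPKM of group 9 was 48.3, 45.5 and 40.7 in chimeras and 61.1 and 55.0 in medaka embryos, or 77.2% of the medaka mean. Group 1 stood at 81.9%, group 8 at 79.2% and group 10 at 78.1% of the medaka mean. Group 2 stood at 103% and group 3 at 102% of it. Group 13 was close to silent in both, at 1.58, 1.91 and 1.77 FPKM in chimeras and 1.52 and 1.70 FPKM in medaka embryos, with none of its 4 members reaching the level for a test. The highest of these, hoxc13a, had 0.834, 0.953 and 0.955 FPKM in chimeras and 1.01 and 0.763 FPKM in medaka embryos.

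**Figure D4:**
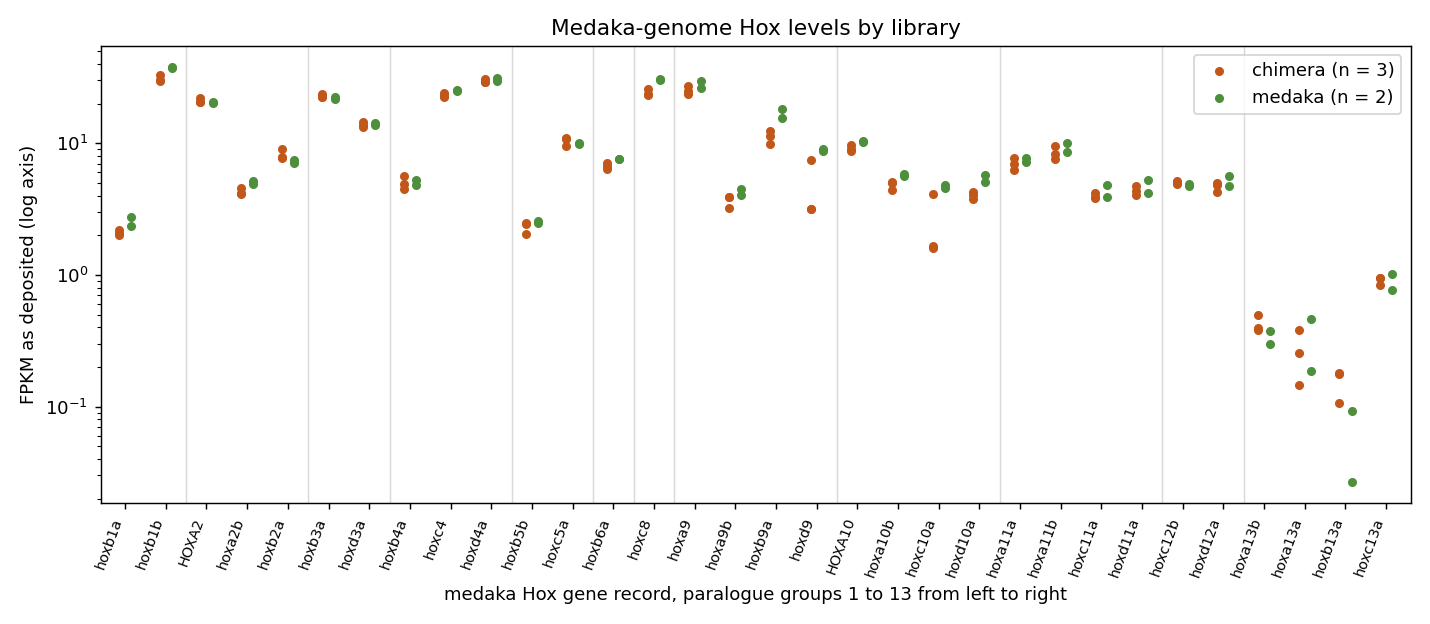
FPKM of the 32 medaka Hox records on a log axis, in 3 chimera libraries (orange) and 2 medaka libraries (green), ordered by paralogue group. Points of both groups lie close together for most genes, and hoxd9 and hoxc10a have 2 chimera points well below the third.

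2 posterior genes split the chimeras. hoxd9 had 7.41, 3.15 and 3.19 FPKM in chimeras and 9.11 and 8.67 FPKM in medaka embryos. hoxc10a had 4.09, 1.66 and 1.61 FPKM in chimeras and 4.84 and 4.61 FPKM in medaka embryos. In both, chimeras 2 and 3 lie together at under 50% of chimera 1. Neither passed the test, with differences of -0.95 (adjusted p = 0.27 by limma) for hoxd9 and -0.84 (adjusted p = 0.26 by limma) for hoxc10a. Without chimera replicate 1 both passed, at -1.30 (adjusted p = 0.00030 by limma) and -1.16 (adjusted p = 0.00073 by limma). The same split, with chimeras 2 and 3 under 50% of chimera 1, occurred in 165 of 13721 tested genes, against 21 and 33 genes for the splits that single out chimera 2 and chimera 3. With the single chimera under 50% of both others, the numbers were 14, 56 and 29 for chimeras 1, 2 and 3. hoxd9 and hoxc10a were chosen after their values were seen. In deposit order chimera 1 stands with the medaka and zebrafish libraries, and chimeras 2 and 3 stand apart from them. The labels name no batch, so a batch difference and scatter among replicates cannot be told apart.

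Donor and host effects were set against each other for the 20 Hox symbols with 1 tested record in each genome. In all 20 the donor difference was lower than the host difference and in 0 higher (limma interaction, Benjamini-Hochberg), against 31.1% lower and 12.6% higher of 7995 symbols. On the donor side all 20 had passed the filter through the zebrafish libraries alone. With host differences near 0, that filter itself favours a negative interaction, so the count adds little to the donor result. The interaction ran from -5.39 for hoxb3a to -1.63 for hoxc12b, with a median of -2.90 against -0.16 over all symbols, and the largest adjusted p of the 20 was 0.0031. The other 4 with the smallest p were hoxd3a at -4.31 (SE 0.13), hoxb1b at -3.77 (SE 0.13), hoxb5b at -3.81 (SE 0.13) and hoxb6a at -3.30 (SE 0.14). For genes listed at 0 in chimeras these sizes follow the zebrafish level and the pseudocount, and do not rank the genes. The Hox median was -5.83 with a pseudocount of 0.1 and -1.22 with 5, and hoxb3a ran from -8.68 to -3.20 over the alternatives. No higher call was made at an unadjusted p either, since all 20 values are negative. Both effects share the chimera libraries, and the genomes were normalized apart. Symbols were paired by name alone. Medaka hoxb3a lies in the hoxa run on chromosome 11, hoxb5b lies among a copies on chromosome 8, hoxb6a lies beside hoxb1b on chromosome 19 and hoxc12b lies among a copies on chromosome 7, so those 4 pairs may not be matching copies.

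**Figure D5:**
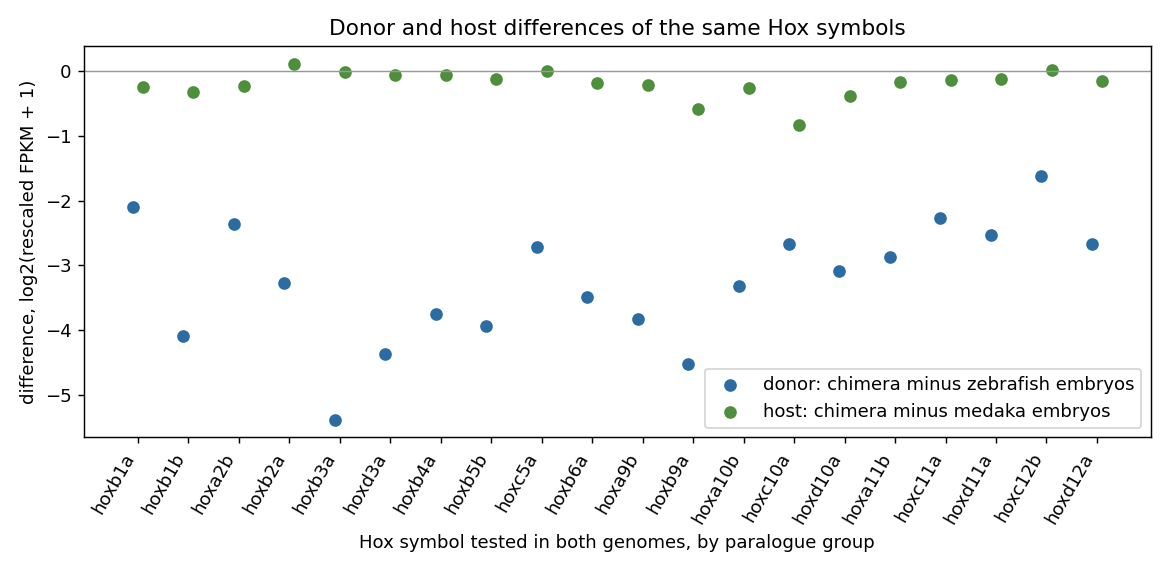
Differences on the log2(rescaled FPKM + 1) scale for the 20 Hox symbols tested in both genomes, with the donor difference (chimera minus zebrafish embryos, blue) and the host difference (chimera minus medaka embryos, green). Donor points lie between -5.39 and -1.61, and host points between -0.84 and 0.12.

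Over the records with a Hox symbol, the shares of the groups differed between whole embryos of the 2 species. The tables were normalized apart and the stages are not given. Annotation also enters these shares. Medaka records without a symbol inside the clusters, 1 of them at 26.9 and 29.6 FPKM in medaka embryos, were not counted. The zebrafish group 3 loci span other Hox genes. The part of annotation in the differences was not tested. Zebrafish embryos held 536 and 528 FPKM of Hox RNA in all, of which group 3 made up 29.4% and group 13 made up 3.77%. Medaka embryos gave their largest share to group 4, at 17.7%, and 0.471% to group 13. cdx4, an activator of posterior Hox genes in the tailbud, stood at 0.786 and 0.726 FPKM in zebrafish embryos and 47.8 and 44.6 FPKM in medaka embryos; its part in the species' profiles was not tested. Between zebrafish copies, 10 pairs with a and b symbols could be compared in zebrafish embryos, and the b copy was higher in 5 and the a copy in 5. The widest ratios were 8.43 for hoxa11b over hoxa11a and 5.95 for hoxc12a over hoxc12b. In chimeras both copies were at 0 in 8 of the 10 pairs, hoxb8 and hoxc13 being the exceptions.

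Genes that work with Hox genes or upstream of them were counted beside the shares over all tested donor genes, 32.9% lower and 10.2% higher. As with the Hox records, a tested gene under 1 FPKM in chimeras passed through the zebrafish libraries alone, which favours a lower direction. Of 11 tested Pbx and Meis genes in the donor, 5 (45.5%) were lower and 0 higher (1 higher at an unadjusted p; limma). meis1a had 0, 0 and 0.307 FPKM in chimeras and 33.7 and 33.0 FPKM in zebrafish embryos. meis3, a hindbrain cofactor, had 0.87, 0.959 and 1.12 FPKM in chimeras and 18.8 and 20.3 FPKM in zebrafish embryos, and meis2b had 12.0, 11.6 and 11.9 FPKM in chimeras and 33.6 and 35.2 FPKM in zebrafish embryos. Under quantile normalization, where the median of all donor genes is 0.34, 5 were lower and 4 higher, beside 3440 lower and 5426 higher of 16255 genes. On the main scaling the list's median log2 difference was -0.53, beside -0.25 over all donor genes tested. All 14 records together summed to 355 to 371 FPKM in chimeras and 361 to 365 FPKM in zebrafish embryos. That sum includes 3 records left out of the test for cross-mapping. 1 of the 3, meis2a, had 135, 161 and 144 FPKM in chimeras and 42.0 and 45.5 FPKM in zebrafish embryos. In the host 0 of 5 tested were called in either direction (1 lower at an unadjusted p). Over all host genes 3.18% were called lower and 2.68% higher.

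Of 16 tested genes of retinoic acid signalling and hindbrain induction, 11 (68.8%) were lower in the donor and 3 (18.8%) higher, against 32.9% and 10.2% of all genes, with a list median of -1.36. Under quantile normalization 8 of 14 were lower and 4 higher, beside 3440 lower and 5426 higher of 16255 genes. mafbb, a Maf transcription factor gene of the hindbrain, had 0 FPKM in all chimeras and 6.20 and 6.89 FPKM in zebrafish embryos. hnf1ba, which sets the posterior hindbrain, was likewise at 0 in chimeras, against 2.08 and 2.69 FPKM in zebrafish embryos. aldh1a2, the main enzyme of retinoic acid synthesis in the trunk, had 3.54, 3.87 and 3.99 FPKM in chimeras and 11.2 and 12.1 FPKM in zebrafish embryos. The higher genes were rdh10a, which makes the precursor of retinoic acid, and cyp26c1 and cyp26a1, which degrade it. Another degrading enzyme, cyp26b1, was lower, with 1.76, 5.46 and 2.32 FPKM in chimeras and 13.5 and 15.9 FPKM in zebrafish embryos (adjusted p = 0.012 by limma). rdh10a had 132, 105 and 138 FPKM in chimeras and 33.5 and 37.4 FPKM in zebrafish embryos. cyp26a1 had 23.9, 29.1 and 37.4 FPKM in chimeras and 12.3 and 12.9 FPKM in zebrafish embryos. In the host 1 of 12 was lower (cyp26a1) and 1 higher (cyp26b1), beside 3.18% and 2.68% of all host genes.

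Markers on either side of the Hox domain were read beside the Hox result. Of 16 tested trunk and tail genes, 14 (87.5%) were lower in the donor and 1, olig2, higher, against 32.9% and 10.2% of all genes, with a list median of -1.82. Many of the 14, among them ta, myod1 and pax9, passed the filter through the zebrafish libraries alone. For those the filter itself favours a lower direction. Quantile normalization left 7 of 15 lower and put 2 higher, again with a negative median (-1.50), beside 3440 lower and 5426 higher of 16255 genes. ta, the Brachyury gene of notochord and tailbud, was at 0 in chimeras, against 8.90 and 9.95 FPKM in zebrafish embryos, and the list summed to 61.7 to 66.1 FPKM in chimeras and 109 to 118 FPKM in zebrafish embryos. Of 9 tested genes of head regions ahead of the Hox domain, 3 were higher (otx2, six3b and foxg1a) and 1, emx3, was lower. Under quantile normalization emx3 stood at 0.01 and was not called. The list median was 0.39. All 13 head records summed to 351 to 363 FPKM in chimeras and 115 to 118 FPKM in zebrafish embryos. That sum includes 3 records left out of the test for cross-mapping. Of 14 tested eye genes 13 were higher and 0 lower (0 at an unadjusted p), with a list median of 2.52, and the list summed to 978 to 1081 FPKM in chimeras and 129 to 131 FPKM in zebrafish embryos. Of the 19 trunk and tail records, 6 were at 0 in all chimeras: ta, myod1, pax9, mnx2b, pax1b and pax1a, where 47.5, 54.4, 33.3, 14.1, 11.7 and 8.09 fragments were expected. Other records of that list kept a signal. olig2 had 44.2, 45.5 and 45.7 FPKM in chimeras and 17.3 and 15.7 FPKM in zebrafish embryos. uncx had 5.97, 6.06 and 7.79 FPKM in chimeras and 9.62 and 9.33 FPKM in zebrafish embryos (adjusted p = 0.053 by limma), and msgn1, too low to be tested, had 0.917, 0.786 and 0.689 FPKM in chimeras and 0.297 and 0.393 FPKM in zebrafish embryos. The part of cell makeup in the Hox result was not tested.

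Of the caudal and even-skipped genes, which share regulation with the posterior Hox genes, 2 of 3 tested were lower in the donor and 0 higher (0 at an unadjusted p), beside 32.9% and 10.2% of all genes, and under quantile normalization 0 of 2 were called. eve1, beside the hoxb run on chromosome 3, was at 0 in chimeras, against 1.18 and 1.08 FPKM in zebrafish embryos. evx2, beside the hoxd run, had 1.56, 0.669 and 1.37 FPKM in chimeras and 4.05 and 4.22 FPKM in zebrafish embryos. In the host 1 of 3 was lower: cdx4 had 35.8, 35.3 and 37.0 FPKM in chimeras and 47.8 and 44.6 FPKM in medaka embryos (log2 difference -0.39, adjusted p = 0.022 by limma). Of 10 tested host trunk and tail genes, 3 were lower (myod1, myf5 and tbx16) and 1 higher (nkx6.1). With no rescaling tbx16 was not called, which left 2 lower and 1 higher. That list summed to 115 to 131 FPKM in chimeras and 136 to 140 FPKM in medaka embryos. Of 11 tested host head genes, 2 were lower (otx1a and the six3 record on chromosome 19) and 1 higher (otx2). With no rescaling otx1a was not called. Of 6 tested host eye genes 0 were lower and 1, atoh7, was higher. Over all tested host genes 3.18% were lower and 2.68% higher. The part of these genes in the lower host Hox levels was not tested.

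The genes around the clusters stood near the shares of all donor genes. Of 45 tested records among the 5 nearest non-Hox records on either side of each cluster, 13 (28.9%) were lower and 7 (15.6%) higher, against 32.9% and 10.2% of all genes, with a median of -0.41. That balance turned under quantile normalization, to 7 lower and 13 higher of 44 with a median of 0.02. The balance of all genes turned there too, to 3440 lower and 5426 higher of 16255 with a median of 0.34. nfe2l2a, next to the hoxd run, had 0.119, 0.153 and 0.268 FPKM in chimeras and 9.03 and 8.88 FPKM in zebrafish embryos. On the other side of the balance cbx5, a heterochromatin protein gene near the hoxc run on chromosome 23, had 243, 261 and 245 FPKM in chimeras and 159 and 171 FPKM in zebrafish embryos. Within the cluster spans 2 of 5 tested non-Hox records were lower and 0 higher (0 at an unadjusted p). hnrnpa1a, an RNA-binding protein gene inside the hoxc span on chromosome 11, had 308, 320 and 268 FPKM in chimeras and 245 and 241 FPKM in zebrafish embryos (adjusted p = 0.17 by limma). In the host 0 of 47 tested neighbours were lower (1 at an unadjusted p) and 1, chn1, was higher. Inside the host cluster spans 3 of 10 tested records without a Hox symbol were lower and 0 higher by limma, with a median of -0.22. At an unadjusted p 6 were lower and 0 higher, with no count over all host genes to set beside it. With no rescaling 1 was called lower and 0 higher. Over all host genes 3.18% were lower and 2.68% higher. The 3 carry no symbol at all, so nothing here identifies them as non-Hox genes. Of the 3, the one with the widest difference had 20.2, 19.9 and 16.8 FPKM in chimeras and 26.9 and 29.6 FPKM in medaka embryos (-0.60, adjusted p = 0.020 by limma).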

How the data were processed

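Poly(A) RNA of 3 chimera, 2 zebrafish and 2 medaka whole-embryo libraries was read on both genomes. FPKM and confidence limits are the authors' deposited values, made with HISAT2 and Cufflinks 2.2.1 on danRer10 per the submitters' processing notes. The medaka build and the HISAT2 version were not given in the sources used here. Positions, counted from 1, come from the files. Values of 119 zebrafish and 2 medaka IDs that stand at more than 1 locus were added up.

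FPKM were rescaled within a genome by median ratio (factors 0.932 to 1.06) and tested as log2(FPKM + 1) with limma 3.58.1 in R 4.3.3 (empirical Bayes, trend and robust), over all genes with a mean of at least 1 FPKM in either group, under 1 FPKM in the other species' libraries and a valid status, with Benjamini-Hochberg adjustment at 0.05. The smallest two-sided exact permutation p for 3 against 2 libraries is 0.1. The interaction used symbols with 1 tested record in each genome.

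The number of fragments behind a value was worked out from its upper confidence limit: the FPKM was divided by its margin to that limit, doubled and squared. The result can be off for genes with several isoforms. Library totals and cross-mapped fragments were read this way. Donor fragments, observed and expected, are the chimera FPKM and the mean zebrafish FPKM times the fragments per FPKM of the zebrafish libraries, scaled to each chimera's depth. Poisson intervals at 95% cover counting error only. The tests were tried on simulated data. Figures came from matplotlib 3.10.9, and other steps used pandas 2.3.3, scipy 1.17.1 and numpy 2.4.6 in Python 3.11.15.

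The members and gene lists were chosen with earlier results of these data known. Genes named are the highest member of each paralogue group in each species' embryos, members above 0 in a chimera, called host members, the 5 interactions with the smallest p, and up to 3 genes per list and direction. Others were named after their values were seen. Alternatives changed the pseudocount, filters, scaling, weights, a block for the chimera library and each library in turn.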

Additional observations from a re-analysis of the deposited data

Results flagged for a closer look

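By the limma interaction, the donor difference was lower than the host difference for all 20 Hox symbols tested in both genomes. Over all 7995 symbols 31.1% were lower and 12.6% higher. All 20 had passed the donor filter through the zebrafish libraries alone. For genes listed at 0 in chimeras the sizes below follow the zebrafish level and the pseudocount, and do not rank the genes. The interaction on the log2 scale was -1.87 for hoxb1a and -3.77 for hoxb1b in group 1, -2.13 for hoxa2b and -3.40 for hoxb2a in group 2, and -5.39 for hoxb3a and -4.31 for hoxd3a in group 3. It was -3.70 for hoxb4a, -3.81 for hoxb5b, -2.73 for hoxc5a and -3.30 for hoxb6a. In group 9 it was -3.62 for hoxa9b and -3.95 for hoxb9a, and in group 10 it was -3.07 for hoxa10b, -1.84 for hoxc10a and -2.71 for hoxd10a. It was -2.70 for hoxa11b, -2.12 for hoxc11a and -2.41 for hoxd11a in group 11, and -1.63 for hoxc12b and -2.52 for hoxd12a in group 12.

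3 genes gave more than 3 fragments in libraries of the other species, among 6 zebrafish and 2 medaka members above 0 there. The medaka libraries held 91.7 fragments of hoxc4a and 60.1 of hoxd4a on the zebrafish genome, and the zebrafish libraries held 6.00 fragments of hoxc4 on the medaka genome.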

How the results depend on the processing

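The donor count of 46 lower members stood at 35 to 47 under every alternative run, and leaving out a library gave 44 to 46. The 35 were all 35 Hox records tested at a mean of at least 5 FPKM, and the 47 were of 48 tested with no expression filter. Without the cross-mapping filter 1 member was higher, hoxc4a. Quantile normalization raised the donor median of all genes to 0.34, and 45 of 45 tested Hox members were lower there, beside 3440 of 16255 genes. With no rescaling 2 host members were lower in place of 3, beside 247 of 13721 genes in place of 437. The host count of 3 lower members became 1 with no expression filter and 4 with voom weights, and ran from 0 to 5 when a library was left out. It was 0 without medaka replicate 1, medaka replicate 2 or chimera replicate 3 and 5 without chimera replicate 1. The cause was not tested. The interaction count of 20 became 13 at a mean of at least 5 FPKM, where 13 symbols were tested, and stayed at 20 with the chimera library as a block. The donor fragment share of 10.1% over all 50 members ran from 9.63% to 10.6% when a library was left out. It became 0.263% over members at 0 FPKM in both medaka libraries and, in alternatives chosen after seeing the data, 0.525% without hoxc4a and hoxd4a, 11.9% with fragments from the chimeras' own confidence limits, and 0.459% with both. The host Hox sum stayed between 86.6% and 91.0% of the medaka level.

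Host differences near 0 that changed sign were HOXA2 (-0.027 to 0.033 when a library was left out), hoxc5a (-0.043 to 0.044) and hoxb3a (-0.043 to 0.039, with 0.042 for no rescaling, 0.019 for quantile normalization and 3.5e-05 for voom weights). Of the other tested host members, hoxb4a (-0.14 to 0.01), hoxc12b (-0.02 to 0.05) and hoxd11a (-0.27 to 0.02) also changed sign under some alternative. None of these 6 was called under any. Of the values of named genes under alternatives, 219 of the donor kept call and direction and 5 lost the call, and 145 of the host kept both, 13 lost the call and 7 changed sign. All 73 interaction values kept both. No paired analysis was possible because the labels give no replicate numbers (those used here follow deposit order); the block above joins the 2 genome readings of 1 chimera library.

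Depth limits the donor side: 1 fragment is a large step at a few FPKM, and a member at 0 with few expected fragments, such as the lower hoxa9a record at 2.28, cannot be read as silent.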
